A study of Homo sapiens with 6 samples.

Results

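LINC genes are human genes named as long intergenic non-coding RNA genes, most with a number in place of a functional name. They were taken here as every entry of the count table whose Ensembl identifier, with its version dropped, has a symbol in GENCODE 29 made of LINC and a number, or starting with LINC-. This gave 294 of the 18677 entries, with 291 distinct symbols: LINC-PINT and LINC01238 had 2 identifiers each, and LINC00106 had an X and a Y copy in the pseudoautosomal region. GENCODE typed 241 of the 294 as lincRNA and 53 as other classes, such as antisense RNA or transcribed pseudogene, with 1 typed protein-coding. By position, 44 of the 294 overlapped a protein-coding gene on either strand, so the name does not always match the place. The other 1590 LINC genes of GENCODE 29 were not analysed here.

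The cells were H1299, a cell line grown from a human non-small cell lung carcinoma. The SETDB1 knockout was made with 1 guide RNA against the human SETDB1 gene (hSETDB1 sg1, 3 libraries) and the control knockout with 1 control guide (Control sg2, 3 libraries), and both groups were grown in RPMI-1640 with fetal bovine serum, penicillin, streptomycin and puromycin. Total RNA of flash-frozen cells was sequenced in bulk. No second SETDB1 guide or clone is given in the labels, which also do not say whether the 3 libraries of a group came from separate cultures, so p-values here reflect the spread among these libraries, which may be technical.

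SETDB1 is a histone methyltransferase that places trimethylation on lysine 9 of histone H3, a mark of silent chromatin, and it is known for silencing endogenous retroviruses together with TRIM28 and KRAB zinc finger proteins. LINC transcripts are spliced and polyadenylated like messenger RNAs but are usually rarer and more restricted to particular tissues, and many start inside old retroviral sequences. A few act on nearby genes or bind proteins or microRNAs, and for most no function is known.

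Libraries made with the SETDB1 guide had 40.6, 36.0 and 39.1 CPM (read counts scaled to a common library size) of SETDB1 RNA, against 45.0, 43.9 and 41.6 CPM in those with the control guide, so that its log2 fold change was -0.17 (standard error, SE, 0.06) with an adjusted p of 0.0151 by edgeR. The groups did not overlap, but the call was lost when library size alone was used for scaling (-0.13, adjusted p = 0.0604, edgeR) and without SETDB1 knockout replicate 2 (-0.13, adjusted p = 0.0896, edgeR). Counts over the whole gene do not show whether the guide's target was cut. Libraries held 29532057 to 35941288 counts, so 1 count was 0.0282 to 0.0334 CPM. Over all 17675 genes tested, 31.9% were called higher and 31.6% lower in the SETDB1 knockout. Of 16 markers chosen to check the cells, 8 were in the table. The epithelial keratin KRT8 had 157 ± 0.702 CPM in the knockout and 367 ± 9.57 CPM in the control (SD, n = 3 each), and KRT18 had 332 ± 6.42 and 599 ± 30.7 CPM. EPCAM, the lung markers NKX2-1 and NAPSA, the fibroblast marker DCN and the endothelial marker VWF had means below 1 CPM in both groups.

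More LINC genes were called higher than lower in the SETDB1 knockout, and the large changes were nearly all increases. Of 251 LINC genes tested, 97 (38.6%) were called higher, against 31.9% of all genes tested, and 55 (21.9%) lower, against 31.6%. At least 2-fold, 54 were called higher, which is 21.5% of the LINC genes tested against 7.14% of all genes, and 6 were called lower, 2.39% against 5.78%. At least 10-fold, 20 were called higher, 7.97% against 1.43%, and 0 lower, against 0.141%. A call means an adjusted p below 0.05 in edgeR's quasi-likelihood test with Benjamini-Hochberg adjustment over all genes tested, and a log2 fold change is SETDB1 knockout over control. With a filter of 1 CPM in 3 libraries, which tests fewer of the rare genes, 31 LINC genes were called at least 2-fold higher and 13 at least 10-fold higher. The count of genes at least 2-fold lower was 10 without SETDB1 knockout replicate 1, 10 without SETDB1 knockout replicate 2 and 11 with no filter on low counts.

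By library values alone, 100 LINC genes had all 3 knockout libraries above all 3 control libraries, against 33.5% of all genes tested, and 53 had them all below, against 33.3%. The median log2 fold change was 0.22 over the 251 LINC genes tested and 0.01 over all genes tested. For other long non-coding RNA genes it was 0.14 over 2188 tested, of which 13.1% were at least 2-fold higher and 4.84% at least 2-fold lower. For protein-coding genes it was -0.02 over 13417 tested, with 6.25% at least 2-fold higher and 6.39% at least 2-fold lower. Without any filter on low counts, the median over all 294 LINC entries was 0.28, and with a filter of 1 CPM in 3 libraries it was 0.11.

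The remaining 43 LINC genes failed the filter on low counts, and none of them averaged above 0.317 CPM over the 6 libraries. Of these 43, 30 had a higher mean CPM in the knockout than in the control, with 19 whose libraries lay apart in that direction and 5 whose libraries lay apart in the other. The filter itself favours genes that are high in either group: 46 of the LINC genes tested passed it through the knockout libraries alone and 8 through the control libraries alone, while 188 passed in both groups and 9 with libraries of both groups together. Over all genes tested, 845 passed through the knockout libraries alone and 580 through the control libraries alone. Genes that passed through 1 group only had to differ, so the counts above describe the genes tested and not all LINC genes.

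**Figure D1:**
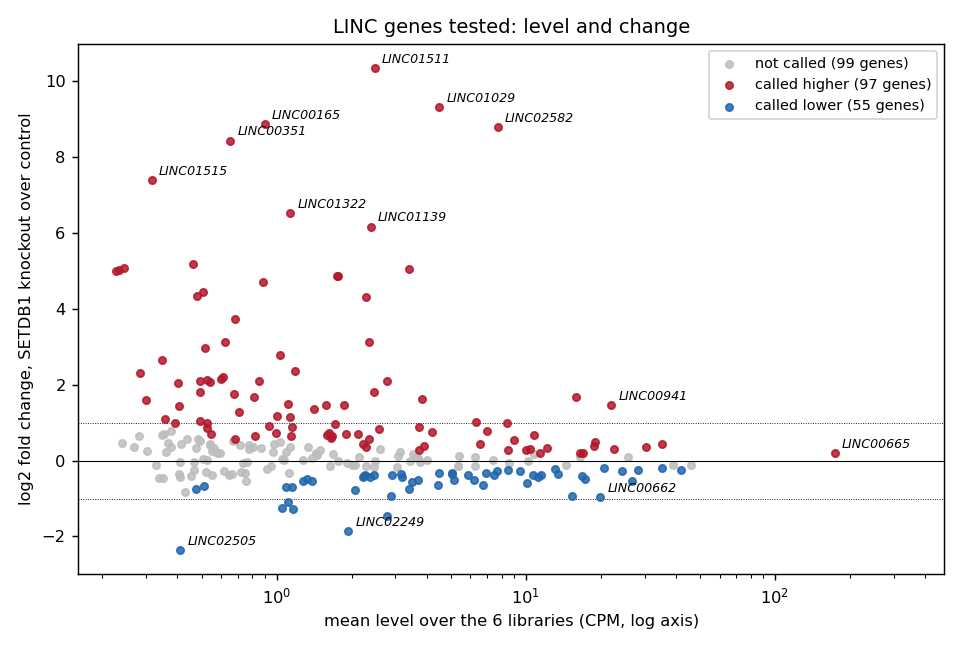
Each point is 1 of the 251 LINC genes tested, with its mean level over the 6 libraries in CPM (log axis) across and its log2 fold change, SETDB1 knockout over control, upwards; red points were called higher (97), blue points lower (55), and dotted lines mark 2-fold. The largest increases lie at mean levels below 10 CPM, and fitted values above 7 at 0 control counts depend on the fit's prior count, so the text gives bounds for them.

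Most LINC RNAs were rare, with a median of 1.12 CPM over the 294 LINC entries against 12.6 CPM over all 18677 entries of the table. Shares were therefore also read within classes of mean level. Among 43 LINC genes tested below 0.5 CPM, 34.9% were called at least 2-fold higher, against 19.2% of all genes in that class. The share was 27.4% against 14.0% between 0.5 and 2 CPM (95 LINC genes), 14.7% against 9.43% between 2 and 10 CPM (75 LINC genes) and 5.26% against 2.64% at 10 CPM or more (38 LINC genes). At least 2-fold lower were 2.33% against 11.5%, 4.21% against 10.1%, 1.33% against 8.47% and 0% against 2.79% in the same 4 classes. In each class the LINC share was above the share of all genes for increases and below it for decreases. Only genes that passed the filter on low counts enter these shares. Below 0.5 CPM these were 43 of 86 LINC entries and 1394 of 2396 entries of the table. In the higher classes every entry was tested. Genes below 0.5 CPM that passed through 1 group only had to differ, so the shares there describe the genes tested. No test was made of the differences in share.

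**Figure D2:**
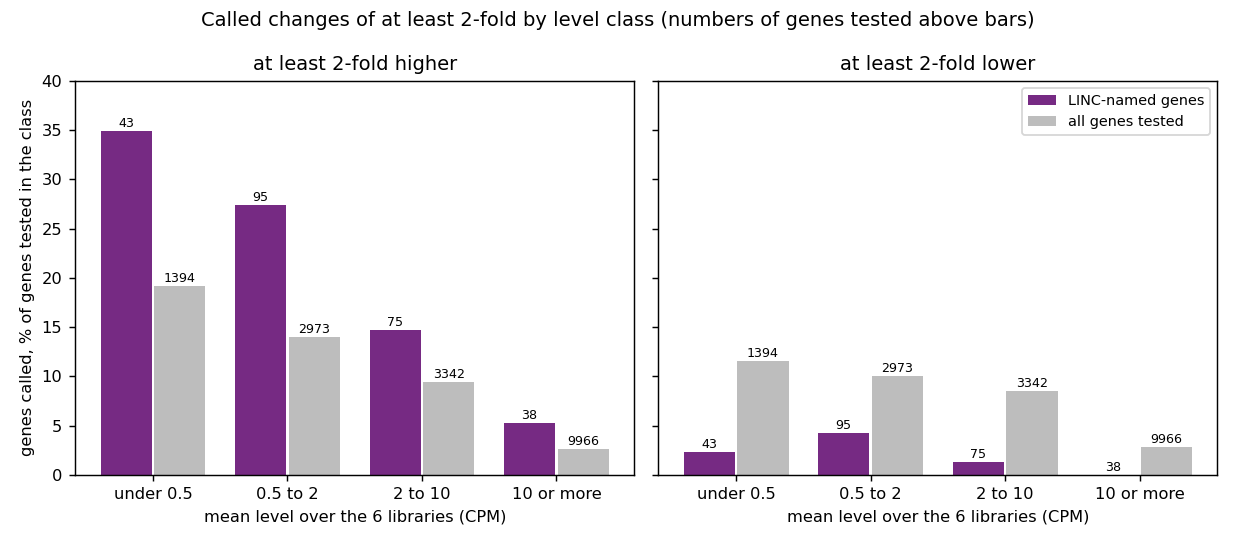
Bars give the percentage of genes tested that were called at least 2-fold higher (left) or lower (right) in the SETDB1 knockout, for LINC genes (purple) and all genes tested (grey), in 4 classes of mean CPM, with the number tested above each bar. LINC bars fall with level on the left, from 34.9% below 0.5 CPM to 5.26% at 10 CPM or more. None on the right exceeds 4.21%. Below 0.5 CPM only 43 of 86 LINC entries passed the filter on low counts.

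The 8 largest increases were of RNAs with almost no reads in the control cells. The set was LINC01511, LINC01029, LINC00165, LINC02582, LINC00351, LINC01515, LINC01322 and LINC01139, on chromosomes 5, 18, 21, 18, 13, 10, 3 and 1. For each of the 8, every knockout library was at or above 0.50 CPM and every control library at or below 0.133 CPM. The highest of the 8 adjusted p-values was 2.07e-07 (edgeR). In bulk RNA, a larger share of cells with a transcript and more of it per cell cannot be told apart.

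LINC02582 (ENSG00000261780, GRCh38 chr18:73324941-73349878, plus strand) reached the highest level of the 8. It had 498, 477 and 541 counts in the knockout and 0, 2 and 1 in the control, or 15.4 ± 1.46 CPM against 0.0304 ± 0.0316 CPM (SD, n = 3 each). The ratio of the counts summed over a group, scaled by depth, was 497, with an exact 95% counting interval of 170 to 2411. Its longest transcript shares a stretch of 235 bases of near-identical sequence with C13orf42, so part of its reads could belong there.

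LINC01511 (ENSG00000250584, chr5:1363582-1380067, minus strand) had 141, 183 and 167 counts in the knockout and 0 in each control library. At 4.96 ± 0.300 CPM in the knockout it exceeded the control by at least 161-fold, with a floor of 3 counts for that whole group. The floor and the counting intervals cover counting error only. LINC01029 (ENSG00000265843, chr18:77971294-77993722, minus strand) had 261, 328 and 302 counts in the knockout and 0, 0 and 1 in the control. Its ratio was 876, with a counting interval of 157 to 34624. RefSeq's promoter table held neither gene, so the first 150 bases of their longest GENCODE transcripts are given, with CG dinucleotides in capitals.
LINC01511: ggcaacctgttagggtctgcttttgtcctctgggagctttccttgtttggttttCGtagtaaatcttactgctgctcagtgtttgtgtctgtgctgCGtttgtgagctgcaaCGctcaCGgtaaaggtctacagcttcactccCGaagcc
LINC01029: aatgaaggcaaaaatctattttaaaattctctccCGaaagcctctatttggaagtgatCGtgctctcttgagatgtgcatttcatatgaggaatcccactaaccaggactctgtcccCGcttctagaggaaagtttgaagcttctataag

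The first 150 bases of LINC01511 aligned over at least 40 bases to transcript starts of 43 other genes in GENCODE 29, with 69.2% to 84.3% identity, of which 25 were tested. Among the 25, 17 were called higher and 6 lower, and 12 were at least 2-fold higher and 1 at least 2-fold lower, beside 31.9%, 31.6%, 7.14% and 5.78% of all genes tested. The 25 mix protein-coding and long non-coding RNA genes. At least 2-fold higher were 21.5% of LINC genes tested and 13.1% of other long non-coding RNA genes tested, and at least 2-fold lower 2.39% and 4.84%. The 25 held 3 LINC genes. LINC01554 was called higher, with 20, 22 and 22 counts in the knockout and 4, 5 and 6 in the control (log2 fold change 2.04), LINC02506 was called higher by 0.39, and LINC01419 was called lower, with a mean of 10.5 CPM in the knockout and 20.1 CPM in the control (-0.94). SCHLAP1, a long non-coding RNA known from prostate cancer, was called higher (1.75). SPECC1 was the gene at least 2-fold lower (-1.61). For LINC01029, LINC00165, LINC00351, LINC01515 and LINC01322, 0 other genes had a matching start by the same limits. The start of LINC01139 aligned to transcript starts of 8 other genes, of which 4 were tested. Of these 4, LINC01515 (matched in a transcript other than its longest) and AC016205.1 were called higher, AC025569.1 was called lower (-0.80) and SCARB2 was not called (-0.04). These matches were looked for after the values were known, a match can lie in a transcript that these cells do not use, and no test was made of the shares.

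LINC00165, LINC00351 and LINC01515 had 0 counts in all control libraries. LINC00165 (ENSG00000261706, chr21:44994362-44995185, minus strand) had 62, 63 and 51 counts in the knockout, at least 57.7-fold more. LINC00351 (ENSG00000226317, chr13:85363601-85544570, plus strand) had 32, 44 and 54 counts there, at least 42.6-fold more. LINC01515 (ENSG00000228065, chr10:65570338-65768835, plus strand) had 15, 24 and 24, at least 20.6-fold more. All 3 were well above the floor in every knockout library, at 0.50 to 2.07 CPM.

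LINC01322 (ENSG00000244128, chr3:165206960-165655423, plus strand) had 75, 68 and 78 counts in the knockout and 0, 0 and 2 in the control, a ratio of 109 with a counting interval of 29.7 to 902. LINC01139 (ENSG00000215808, chr1:238476542-238486054, minus strand), also called LINK-A and described as a binder of kinases in breast cancer, had 154, 161 and 149 counts in the knockout and 4, 1 and 1 in the control. Its log2 fold change was 6.16 (SE 0.28; adjusted p = 2.79e-13, edgeR). For LINC01322 and LINC00165 the RefSeq promoters (GRCh38.p14, 250 bases before to 50 after the start) are shown, with CG dinucleotides in capitals. The LINC01322 window is chr3:165206698-165206997 on the plus strand with 11 CG dinucleotides, and the LINC00165 window is chr21:44995153-44995452 on the minus strand with 6.
LINC01322: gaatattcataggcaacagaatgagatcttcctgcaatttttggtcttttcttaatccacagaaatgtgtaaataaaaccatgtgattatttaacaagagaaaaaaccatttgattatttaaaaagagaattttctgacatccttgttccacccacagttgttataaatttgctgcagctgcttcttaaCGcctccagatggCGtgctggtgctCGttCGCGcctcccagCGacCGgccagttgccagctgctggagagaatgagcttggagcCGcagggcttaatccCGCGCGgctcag
LINC00165: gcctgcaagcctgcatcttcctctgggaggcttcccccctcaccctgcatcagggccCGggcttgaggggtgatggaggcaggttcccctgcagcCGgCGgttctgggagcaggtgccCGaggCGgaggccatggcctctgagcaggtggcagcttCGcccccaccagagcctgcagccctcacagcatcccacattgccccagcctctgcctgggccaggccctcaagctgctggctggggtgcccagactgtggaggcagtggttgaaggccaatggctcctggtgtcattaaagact

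**Figure D3:**
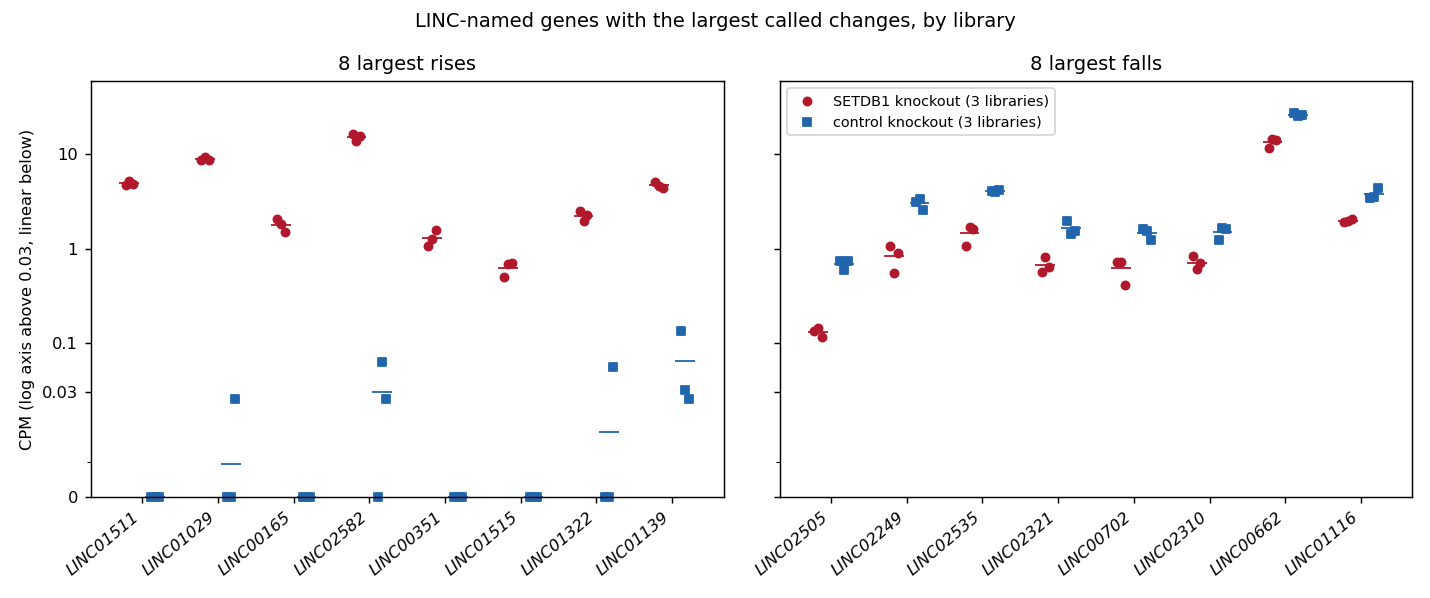
Points give the CPM of each library for the 8 LINC genes with the largest called increases (left) and the 8 with the largest called decreases (right), SETDB1 knockout as red circles and control as blue squares, with a line at each mean; the axis is logarithmic above 0.03 CPM and linear below. On the left all knockout points lie at 0.50 CPM or more and all control points at 0.133 CPM or less, and on the right the groups are closer but do not overlap for any gene.

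A further 12 LINC genes were called higher with a fitted change of at least 10-fold, with log2 fold changes of 3.73 to 5.18, knockout means of 0.443 to 6.63 CPM and control means of 0.0111 to 0.217 CPM. LINC01204 had 214, 209 and 230 counts in the knockout and 3, 4 and 12 in the control (log2 fold change 5.05, SE 0.22). LINC00882 had 134, 148 and 146 counts in the knockout and 7 in each control library (4.30, SE 0.20). LINC01647 had 109, 124 and 105 in the knockout and 3, 5 and 3 in the control (4.87, SE 0.25). LINC00632, known as the host of the circular RNA CDR1as, had 14, 13 and 18 counts in the knockout and 1, 0 and 0 in the control, so it stayed a rare RNA in both groups. These 4 genes were named after their values were seen. Of the 20 genes at least 10-fold higher, 17 were typed lincRNA and 13 overlapped no other gene, and they lay on 10 chromosomes, with 4 of them on chromosome 18. Of all 251 LINC genes tested, 202 were typed lincRNA, 110 overlapped no other gene and 11 lay on chromosome 18. The 4 that had 0 control counts pass 10-fold by their bounds as well as by the fit. LINC00317, LINC00632 and LINC00624 had 1 control count each, and their counting intervals begin below 10-fold, at 7.37, 7.54 and 7.90.

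Silence in 1 group was found on the control side. There were 9 LINC genes with 0 counts in all 3 control libraries and 12 with 1 to 3 counts over them, against 0 genes with 3 or fewer counts over the knockout libraries, where the lowest sum was 8. Of the 9, the 5 not tested (LINC02008, LINC01582, LINC01947, LINC02241 and LINC02336) had 22 to 43 counts over the knockout libraries and were at least 7.21-fold to 14.1-fold higher against the floor. The whole table showed the same side: 88 entries had 0 counts over the control libraries and 105 had 1 to 3. Over the knockout libraries, 0 entries had none and 15 had 1 to 3, and the lowest sum was 1. The table listed only genes with more than 10 counts in at least 1 library, since its smallest entry maximum was 11. LINC genes with at least 1 count numbered 294, 293 and 294 in the knockout libraries and 276, 274 and 280 in the control libraries. At 0.5 CPM or more there were 223, 214 and 216 in the knockout and 185, 178 and 180 in the control, so the groups did not overlap.

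Summed over all 294 entries, LINC reads made up 1460, 1370 and 1406 CPM in the knockout and 1296, 1306 and 1255 CPM in the control, and the groups did not overlap. The mean was 1412 ± 45.1 CPM against 1286 ± 27.0 CPM (SD, n = 3 each). Without LINC00665, the most abundant of them, it was 1226 ± 47.7 CPM against 1124 ± 25.5 CPM. The 54 genes called at least 2-fold higher contributed 180 ± 7.14 CPM in the knockout and 38.3 ± 1.56 CPM in the control, sums that their choice puts in this order. Of these 54, 42 were below 0.5 CPM in the control (77.8%, against 49.5% of the 1262 genes of the table called at least 2-fold higher). Only 7 reached 5 CPM in the knockout: LINC00664, LINC00707, LINC00941, LINC01029, LINC01204, LINC01535 and LINC02582. LINC00664, which overlaps zinc finger genes on chromosome 19, was the most abundant of these after LINC00941, with 27.2, 22.2 and 23.5 CPM in the knockout and 7.04, 7.85 and 7.82 CPM in the control (log2 fold change 1.68, SE 0.08).

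The decreases were smaller than the increases. The 8 largest were LINC02505, LINC02249, LINC02535, LINC02321, LINC00702, LINC02310, LINC00662 and LINC01116, with a highest adjusted p of 1.29e-04 (edgeR). The 6 called at least 2-fold lower were 2.14-fold to 5.12-fold lower, with control means of 0.689 to 4.09 CPM. LINC02505 (ENSG00000248215, chr4:36496537-36641900, minus strand) had 4, 5 and 4 counts in the knockout and 22, 19 and 26 in the control (log2 fold change -2.36, SE 0.34). LINC02249 (ENSG00000225930, chr15:30195809-30217552, plus strand) had 32, 19 and 31 in the knockout and 94, 108 and 91 in the control (-1.86, SE 0.20). Both kept reads in every knockout library, unlike the LINC genes that had none in the control.

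LINC02535 (ENSG00000234155, chr6:85387219-85390186, minus strand) had 32, 59 and 55 counts in the knockout and 122, 127 and 149 in the control (-1.47, SE 0.15). The nearest expressed genes, 25 on each side, had a median log2 fold change of -0.57, and with that median taken out the gene's value was -0.90 (adjusted p = 4.40e-05, edgeR). This setting was added after the data were seen. LINC02321 (ENSG00000258884, chr14:90822365-90828128, minus strand) had 17, 28 and 22 counts in the knockout and 59, 45 and 55 in the control (-1.27, SE 0.21), with a neighbourhood median of -0.37. LINC00702 (ENSG00000233117, chr10:4201141-4243912, minus strand) had 22, 25 and 14 in the knockout and 49, 49 and 44 in the control (-1.24, SE 0.23). LINC02310 had 25, 21 and 24 in the knockout and 37, 53 and 58 in the control (-1.10, SE 0.21). All 4 had groups that did not overlap.

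LINC00662 (ENSG00000261824, chr19:27684580-27793940, minus strand), an RNA described as promoting growth in several cancers, was the most abundant of the 8. It had 11.8, 14.6 and 14.1 CPM in the knockout and 27.3, 25.9 and 26.0 CPM in the control (-0.96, SE 0.07; adjusted p = 8.43e-10, edgeR). LINC01116 (ENSG00000163364, chr2:176629589-176637931, minus strand), described in glioma and lung cancer, had 1.93, 1.96 and 2.05 CPM in the knockout and 3.47, 3.53 and 4.40 CPM in the control (-0.95, SE 0.14). It shares 312 bases of near-identical sequence with FOXK1, so its reads could be divided between the 2 genes.

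Promoters of 2 of these genes are shown because they have the most and the fewest CG dinucleotides among the RefSeq promoters of the 6 genes at least 2-fold lower. LINC02321 (GRCh38.p14 chr14:90828125-90828424, minus strand) has 33, and LINC00702 (chr10:4243863-4244162, minus strand) has 0. CG dinucleotides are in capitals.
LINC02321: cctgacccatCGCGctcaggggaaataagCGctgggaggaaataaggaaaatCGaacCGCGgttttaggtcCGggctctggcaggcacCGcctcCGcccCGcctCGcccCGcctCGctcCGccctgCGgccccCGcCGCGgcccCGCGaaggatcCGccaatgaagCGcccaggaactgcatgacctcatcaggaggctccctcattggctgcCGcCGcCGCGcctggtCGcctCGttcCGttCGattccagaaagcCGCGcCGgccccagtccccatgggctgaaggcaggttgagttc
LINC00702: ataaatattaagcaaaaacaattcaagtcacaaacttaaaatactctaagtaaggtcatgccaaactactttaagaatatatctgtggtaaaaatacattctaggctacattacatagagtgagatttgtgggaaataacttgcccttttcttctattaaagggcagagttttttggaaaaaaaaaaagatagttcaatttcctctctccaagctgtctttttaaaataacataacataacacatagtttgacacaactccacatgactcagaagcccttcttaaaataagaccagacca

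The most abundant LINC RNAs changed little. LINC00665 (ENSG00000232677, chr19:36313067-36331718, minus strand), described as a cancer-associated RNA of the liver and lung, had 182, 186 and 190 CPM in the knockout and 161, 164 and 160 CPM in the control (log2 fold change 0.20, SE 0.05; adjusted p = 0.00167, edgeR). Its groups did not overlap. It shares 283 bases of near-identical sequence with LINC01535, itself higher in the knockout, at 8.44 CPM against 4.17 CPM (1.02). LINC00963 had 44.4 ± 0.0827 CPM in the knockout and 47.9 ± 2.20 CPM in the control and was not called (adjusted p = 0.0833, edgeR). LINC00839 had 37.3 ± 2.34 CPM in the knockout and 40.7 ± 2.35 CPM in the control and was not called either (adjusted p = 0.0837, edgeR), though it was called lower without SETDB1 knockout replicate 1 (adjusted p = 0.0192, edgeR) and without control replicate 3 (adjusted p = 0.0194, edgeR).

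LINC01002 had 38.6 ± 3.95 CPM in the knockout and 45.4 ± 4.57 CPM in the control (-0.24, SE 0.08; adjusted p = 0.0108, edgeR). Its groups overlapped, and 91.5% of its transcript is near-identical to FAM157A. It was no longer called without SETDB1 knockout replicate 2 (adjusted p = 0.0704, edgeR), without control replicate 1 (0.0552) and without control replicate 2 (0.0574). It was also lost with the neighbourhood median taken out (-0.01, adjusted p = 0.953, edgeR), a setting added after the data were seen. Per kilobase of exon, LINC00665 was highest with 25.8 CPM per kb in the knockout and 22.5 in the control, then LINC00941 with 23.9 and 8.66, then LINC01896 with 23.4 and 17.3. The promoter of LINC00665 (GRCh38.p14 chr19:36331669-36331968, minus strand, 12 CG dinucleotides in capitals) is given as that of the most abundant member.
LINC00665: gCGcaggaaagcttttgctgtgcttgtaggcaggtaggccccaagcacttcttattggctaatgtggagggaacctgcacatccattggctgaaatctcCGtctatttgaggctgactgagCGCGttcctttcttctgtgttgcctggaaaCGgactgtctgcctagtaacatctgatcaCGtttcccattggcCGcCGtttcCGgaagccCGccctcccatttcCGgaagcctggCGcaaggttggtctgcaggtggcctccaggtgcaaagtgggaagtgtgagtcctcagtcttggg

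Among LINC genes with a described role, changes went both ways. Of 37 genes listed for roles in cancer, for encoded small peptides or for an origin in HERVH, 19 were in the table as 20 entries, and 19 entries were tested. Of these, 9 were called higher, 5 lower and 5 were not called, beside 31.9% higher and 31.6% lower over all genes tested, and their median log2 fold change was 0.17. The cancer list had 18 of 28 genes in the table and the peptide list 3 of 9. The HERVH list had 0 of 3, so it was not analysed here. LINC00324 was in the table but under the filter, at 0.327 CPM in the knockout and 0.111 CPM in the control.

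LINC00941, described as promoting invasion in several carcinomas, had 32.8, 31.2 and 33.2 CPM in the knockout and 10.7, 12.0 and 12.5 CPM in the control (log2 fold change 1.46, SE 0.07; adjusted p = 5.60e-13, edgeR). LINC00707, described in lung adenocarcinoma, had 5.63, 6.21 and 5.59 CPM in the knockout and 1.63, 1.77 and 2.23 CPM in the control (1.62, SE 0.13). LINC00460, described in lung and head and neck cancers, had 2.90, 2.54 and 2.78 CPM in the knockout and 0.967, 0.977 and 1.02 CPM in the control (1.46, SE 0.16). In each of these 3 the lowest knockout library was above the highest control library. LINC00346 had 1.24 ± 0.165 CPM in the knockout and 0.754 ± 0.112 CPM in the control (0.71, SE 0.21). LINC00472 (0.54), LINC00461, a host of a miR-9 gene (0.35), and LINC01234 (0.20) were called higher with smaller changes.

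Besides LINC00662 and LINC01116, LINC00205 was called lower with 5.13, 5.55 and 5.03 CPM in the knockout and 8.84, 7.50 and 8.36 CPM in the control (-0.65, SE 0.09). LINC00342 was called lower with 15.3, 12.9 and 15.2 CPM in the knockout and 20.3, 21.3 and 18.6 CPM in the control (-0.48, SE 0.08), but 100% of a transcript of it is near-identical to AC092683.1. LINC-PINT, described as a tumour suppressor, has 2 identifiers that moved in opposite directions. ENSG00000226380 had 22.2 ± 2.58 CPM in the knockout and 15.7 ± 0.497 CPM in the control (0.50, SE 0.08; adjusted p = 1.32e-05, edgeR). ENSG00000231721 had 6.43 ± 0.279 CPM in the knockout and 8.47 ± 1.90 CPM in the control (-0.39, SE 0.13; adjusted p = 0.0112, edgeR), with overlapping groups. LINC00467 (0.11), LINC00511 (0.17) and LINC00908 (-0.84) were not called, nor were LINC00963 and LINC00839.

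The nearest protein-coding gene in the count table, by distance between gene starts, was often called in the same direction as the LINC gene. Protein-coding genes missing from the table were passed over, so a closer one can exist in the genome. The nearest gene in the table was tested for 246 LINC genes, at a median distance of 67.2 kb. Beside 96 LINC genes called higher, the neighbour was called higher in 48 cases, lower in 20 and not called in 28. Beside 53 called lower, it was called higher in 9, lower in 28 and not called in 16. Beside 97 not called, it was higher in 20, lower in 44 and not called in 33. Of all protein-coding genes tested, 33.0% were called higher and 36.4% lower. Across the 246 pairs, the log2 fold changes had a Pearson correlation of 0.43 and a Spearman correlation of 0.36, given as a description, since pairs share the 6 libraries and some share a neighbour. Both genes of a pair also had to pass the filter on low counts, which favours genes that are high in either group. The correlations therefore describe the genes tested. The Spearman correlation was 0.50 over 32 divergent pairs with starts within 5 kb, 0.26 over 101 pairs more than 100 kb apart, and 0.39 over 2158 pairs of other long non-coding RNA genes.

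For the 8 largest decreases, 7 neighbours were called lower and 1 was not called, beside 36.4% of all protein-coding genes tested called lower. UQCRFS1, a subunit of respiratory complex III and the neighbour of LINC00662 at 1420 kb, had a log2 fold change of -1.10, and GOLGA8T beside LINC02249 had -1.53. TTC7B (-0.83) lies beside LINC02321, FRMD6 (-0.75) beside LINC02310, the transcription factor gene KLF6 (-0.68) beside LINC00702, NT5E, which encodes the surface enzyme CD73 (-0.37), beside LINC02535, and MTX2 (-0.30) beside LINC01116. Around NT5E, the nearest 25 expressed genes on each side had a median log2 fold change of -0.57. That median was -0.37 around GOLGA8T, -0.33 around UQCRFS1 and TTC7B, -0.11 around KLF6, -0.01 around MTX2 and 0.10 around FRMD6. Whether a decrease belongs to the pair or to its wider region was not tested. For the 8 largest increases, 5 neighbours were called higher, 1 lower, 1 was not called and 1 was not tested. Of all protein-coding genes tested, 33.0% were called higher and 36.4% lower. The neighbour called lower was JMJD1C (-0.84), at 2048 kb from LINC01515.

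The neighbours of the largest increases differed in how far they moved. SLITRK6, a synaptic membrane protein gene whose start is 443 kb from that of LINC00351, had 351, 366 and 349 counts in the knockout and 0 in each control library. CHRM3, a muscarinic acetylcholine receptor gene 901 kb from LINC01139, had 7.86, 7.71 and 7.46 CPM in the knockout and 0.334, 0.284 and 0.141 CPM in the control (4.93, SE 0.18). SLITRK3, 9.85 kb from LINC01322, had 2.30, 2.11 and 1.61 CPM in the knockout and 0.567, 0.504 and 0.649 CPM in the control (1.79, SE 0.21). The LINC gene and its neighbour were both silent or nearly so in the control in the pairs of LINC00351 and LINC01139. NETO1 beside LINC02582 (0.53) and CLPTM1L beside LINC01511 (0.41) were called higher with changes under 1.5-fold, far from those of the LINC genes.

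Of 53 LINC genes at least 2-fold higher with a neighbour tested, 32 had a neighbour called higher, 17 of these at least 2-fold, and 11 had one called lower, and the neighbours' median log2 fold change was 0.29. Over all protein-coding genes tested, 33.0% were called higher, 6.25% at least 2-fold, and 36.4% lower. Besides those above, LINC00317 (4.99) lies 739 kb from the neural adhesion gene NCAM2 (10.95), LINC02328 (2.64) lies 405 kb from FLRT2 (8.60), and LINC02228 (3.12) lies 546 kb from the cadherin gene CDH10 (5.06), with log2 fold changes in brackets. LINC00668 (4.69) lies 188 kb from the laminin gene LAMA1 (3.91). LINC02600 (4.86) starts 2.96 kb from the adrenergic receptor gene ADRA2C (3.50) on the opposite strand, and LINC00941 (1.46) starts 216 bases from CAPRIN2 (0.68) in the same arrangement. Opposite directions also occurred. LINC00460 (1.46) lies 161 kb from EFNB2 (-0.84), and LINC01204 (5.05) lies 632 kb from KDM6A (-0.47). These pairs were chosen after their values were seen.

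**Figure D4:**
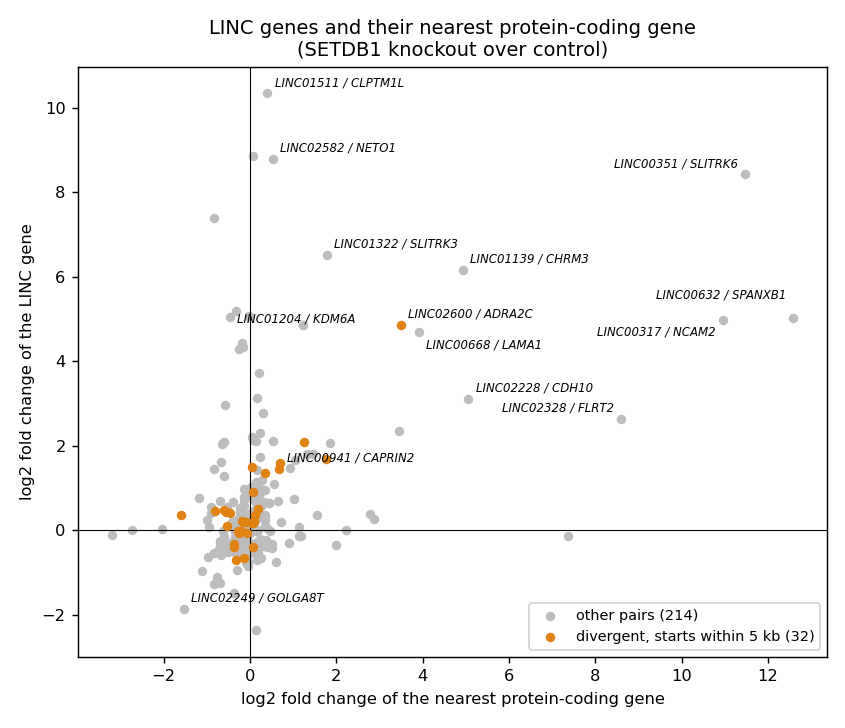
Each point is 1 of 246 LINC genes. Across is the log2 fold change (SETDB1 knockout over control) of its nearest protein-coding gene in the count table, and upwards its own. The 32 divergent pairs whose starts lie within 5 kb are in orange. Pairs such as LINC00351 and SLITRK6 lie at the upper right, while LINC01511 and LINC02582 rose beside neighbours whose log2 fold changes were 0.41 and 0.53.

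LINC genes called in the same stretch of chromosome formed 4 runs of starts within 200 kb, with 10 members, and 3 of the runs moved in 1 direction. The run with the largest mean fitted log2 fold change was LINC01547 and LINC00165 on chromosome 21, where LINC00165, at 0 control counts, was at least 57.7-fold higher. LINC01547 had 25, 48 and 50 counts in the knockout and 11, 20 and 33 in the control (0.91, adjusted p = 0.00752, edgeR), with overlapping groups. On chromosome 13, LINC00552 (2.06), LINC00452 (3.73) and LINC00565 (2.79) rose within a span of 178 kb. On chromosome 1, LINC01128 (-0.40) and LINC00115 (-0.38) fell, and both share near-identical sequence with other genes. The fourth run, LINC00513 and both LINC-PINT entries on chromosome 7, moved both ways.

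By chromosome, 6 of 11 LINC genes tested on chromosome 13 were called higher and 0 lower, whereas 21.2% of all genes tested there were called higher and 36.2% lower. On chromosome 18, 6 of 11 were called higher and 2 lower, beside 21.0% and 40.9% of all genes there. On chromosome 20, 4 of 7 were called higher and 0 lower, beside 51.0% and 23.6%. In contrast, chromosome 10 had 2 of 9 called higher and 4 lower, beside 9.94% and 64.5% of all its genes, and chromosome 8 had 0 of 7 higher and 3 lower, beside 45.4% and 19.3%. The counts per chromosome are small, and differences between chromosomes were not tested.

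**Figure D5:**
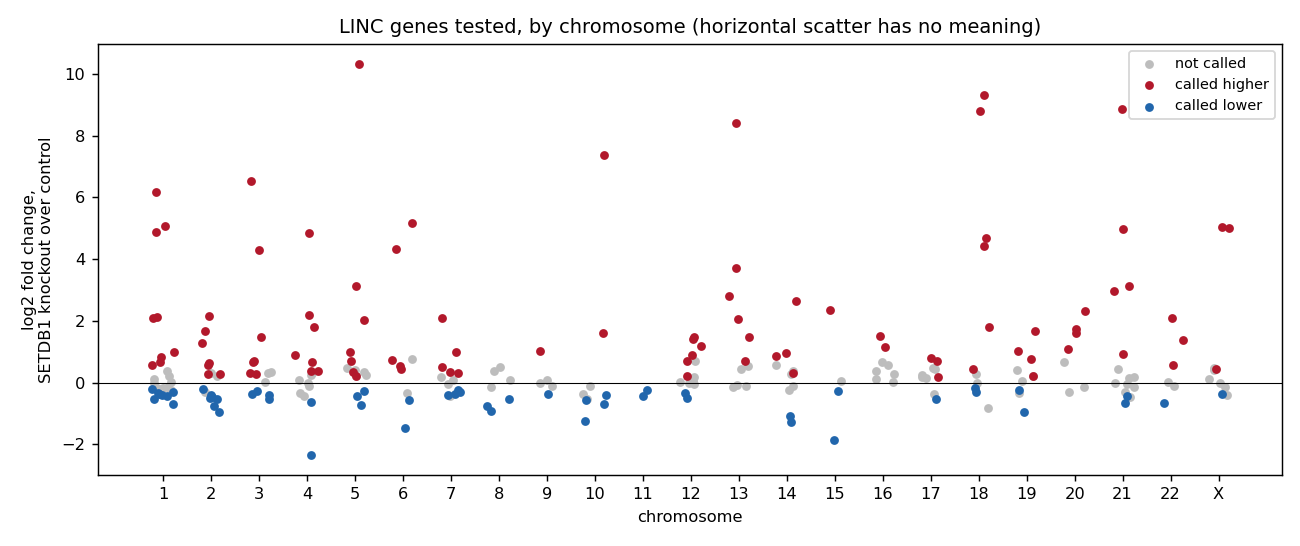
Each point is a LINC gene tested, placed by chromosome across (scatter within a chromosome has no meaning) and by log2 fold change, SETDB1 knockout over control, upwards, with red called higher, blue called lower and grey not called. Increases above 4 occur on 10 chromosomes, and no decrease goes below -2.36.

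Calls were also counted by how a LINC gene lies among other genes. Of 110 tested that overlap no other gene, 50 were called higher and 15 lower, with 31 at least 2-fold higher and 5 at least 2-fold lower. Over all genes tested the shares were 31.9% higher and 31.6% lower, and 7.14% and 5.78% at 2-fold or more, for this group and those that follow. Of 141 tested that overlap another gene, 47 were called higher and 40 lower, with 23 at least 2-fold higher and 1 at least 2-fold lower. Of 34 tested that share at least 30% of a transcript with another gene at 97% identity or more, 4 were called higher and 16 lower, and 0 passed 2-fold in either direction. Reads of overlapping or near-identical genes can be dropped or counted in the wrong gene, and no label says whether strand was used in the counting.

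RefSeq promoters were found for 188 of the 294 entries. The median number of CG dinucleotides in the 300 bases was 13 for 29 genes at least 2-fold higher, 18 for 32 other genes called higher, 14 for 65 not called and 15 for 39 called lower, beside 14 over all 35116 promoters. The letters TATAAA, on either strand, were in 10.3%, 6.25%, 16.9% and 12.8% of these 4 groups and in 11.5% of all promoters. GGGCGG, a GC box, was in 48.3%, 59.4%, 50.8% and 35.9%, beside 45.0% of all. TGANTCA, the AP-1 motif, was in 3.45%, 9.38%, 6.15% and 15.4%, beside 7.71% of all. A match to letters is not a binding site, and with 29 to 65 promoters a group no test was made.

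Of 27 well-known long non-coding RNAs that carry other names, 22 were in the table, and 7 were called higher, 12 lower and 3 were not called, with a median log2 fold change of -0.19. Of all other long non-coding RNA genes tested, 30.8% were called higher and 16.6% lower. ESRG, an RNA of pluripotent stem cells known to be transcribed from an endogenous retrovirus of the HERVH family, had 63.5, 60.2 and 64.5 CPM in the knockout and 0.867, 0.694 and 0.847 CPM in the control (log2 fold change 6.28, SE 0.10; adjusted p = 2.41e-20, edgeR). FENDRR rose (4.49), at 1.02 ± 0.316 CPM in the knockout and 0.0411 ± 0.0359 CPM in the control. NEAT1, the scaffold of paraspeckles, was called higher, with 478 ± 49.3 CPM in the knockout and 288 ± 14.3 CPM in the control (0.73). SNHG5, a small nucleolar RNA host gene, was called lower (-0.64), and so was MALAT1, a nuclear speckle RNA, with 270 ± 34.0 CPM in the knockout and 407 ± 14.3 CPM in the control (-0.59). A list of 17 genes held SETDB1, its partners and other silencing genes, such as other histone methyltransferases and DNMT1. Of these, 9 were called higher, 5 lower (SETDB1 among them) and 3 were not called. Over all genes tested, 31.9% were called higher and 31.6% lower. The histone methyltransferase gene EHMT2 (0.99), ATF7IP (0.91), whose product stabilises SETDB1, and TRIM28 (0.82) were higher, and PPHLN1, of the HUSH complex (-0.64), and CBX3, a heterochromatin protein gene (-0.40), were lower. These do not stand for a whole complex or family. On the same list FAM208A (0.17), MORC2 (0.28) and CBX5 (0.23) were called higher and EHMT1 (-0.31) lower, while MPHOSPH8 (-0.02) and CBX1 (-0.04) were not called.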

How the data were processed

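RNA of 6 H1299 samples was sequenced, with groups and replicates read from the titles. The table the authors deposited holds raw counts, whole numbers of reads for each Ensembl gene. Per the labels' protocols, libraries were made from total RNA with an Illumina TruSeq RNA kit. Per the submitters' processing notes, the genome build was GRCh38.p7 and the tools were FastQC, TopHat2 and HTSeq, and no version, strand or multi-mapping setting is stated. Identifiers were matched without version to GENCODE 29, which named 18595 of 18677 entries (16484 with the same version). The members, lists and tests were chosen with earlier results of these data known.

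Tests were run on the whole table in R 4.3.3 with edgeR 4.0.16: filterByExpr by group (17675 genes kept, 1002 removed), TMM scaling (factors 0.976 to 1.02), robust quasi-likelihood fits and Benjamini-Hochberg adjustment over the genes kept; the threshold was 0.05. The biological coefficient of variation was 4.89% in common, and CPM were computed with TMM-scaled totals. Replicates differed by more than counting error (chi-square per degree of freedom 2.32 to 10.2). The fits took each library as 1 sample, though this spread cannot show whether the libraries came from separate cultures. Against 0 counts, folds are bounds with 3 counts as the floor of the whole group, and for 1 to 3 counts the ratio has an exact 95% counting interval. Near-identical stretches were found with BLAST (97% identity, 150 bases or more), and transcript starts were aligned over their first 150 bases (expect value up to 1e-05, at least 40 bases). The steps were tested on simulated data. Values of 1 marker gene and the transcript start of LINC02582 are not reported here.

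By rule, the genes named are the 8 largest called increases and 8 largest called decreases. Their groups do not overlap and the higher group has at least 0.5 CPM. The rule also takes the 4 highest mean levels and up to 4 increases and 4 decreases of the role lists. It adds the nearest protein-coding genes in the count table for the largest increases and decreases, and the run with the largest mean change. Last are up to 2 increases and 2 decreases of 2 further lists. These are the other long non-coding RNAs, and SETDB1 with its partners and other silencing genes. Every other gene named, such as LINC00664, LINC-PINT, LINC00472, LINC00461, LINC01234, NEAT1 and TRIM28, was chosen after its values were seen. Alternatives were library size alone, DESeq2 size factors, no filter, a filter of 1 CPM in 3 libraries, DESeq2 1.42.0, limma-voom (limma 3.58.1), the replicate number as a block, an adjusted p under 0.01, each library left out, and, added after the data were examined, the median change of 25 expressed genes on each side (log2 CPM above 3) as an offset. The counts at 2-fold and 10-fold were also added then.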

Additional observations from a re-analysis of the deposited data

How the results depend on the processing

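Counts of LINC genes called higher (97) and lower (55) stayed within 1.5 times under each alternative except 1: at an adjusted p under 0.01, 34 were called lower. They ranged from 91 to 106 higher and 44 to 58 lower when single libraries were left out, and with the neighbourhood median taken out they were 101 and 37. The count at least 2-fold lower was 11 with no filter and 7 to 10 without single libraries. With a filter of 1 CPM in 3 libraries, 31 were at least 2-fold higher and 13 at least 10-fold higher, from fewer genes tested; without single libraries these counts were 59 to 71 and 21 to 28. For the 27 genes run under the alternatives (SETDB1, the largest changes, the highest levels and the role-list genes named by the rule), 365 of 376 values had the direction and the side of the threshold of the value reported. LINC01515 and LINC02505 had no value with the filter of 1 CPM in 3 libraries. The threshold of 0.01 is not among the 376 values. By edgeR, the adjusted p-values of SETDB1 (0.0151) and LINC01002 (0.0108) lie above it. Other genes named in the text were not rerun singly. With the neighbourhood median taken out, LINC00839 (0.0463) and LINC00963 (0.0236), neither of them called, changed sign; the cause was not tested. Same-numbered libraries of the 2 groups correlated at 0.16, -0.09 and 0.06 in their deviations from group means. Differently numbered ones correlated at -0.22 to 0.19. With 3 libraries a group, these values cannot show whether the numbers mark a shared culture or batch. With the replicate number as a block, 96 LINC genes were called higher and 56 lower, and LINC00839 was called (adjusted p = 0.0431, edgeR). Depth limits the genes below 0.5 CPM, where the mean rests on few counts per library.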
